A study of Mus musculus with 18 samples.

Results

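Chromosome 5 of the mouse carries 2 groups of genes for CXC chemokines, small secreted proteins that steer leukocytes. The first group, called the neutrophil cluster here, holds Cxcl1, Cxcl2, Cxcl3, Cxcl5, Pf4 and Ppbp. The second group, called the interferon cluster here, holds Cxcl9, Cxcl10 and Cxcl11. All elements of accessible chromatin that lay in the bodies of these 9 genes, or within 50 kb of their most upstream start site in GENCODE M21, were taken from the macrophage catalog. They amounted to 73 of 84660 summits, 70 of 82391 reference peaks and 34 of 59617 extended regions. Elements were assigned to the genes by position alone.

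Cxcl1, Cxcl2, Cxcl3 and Cxcl5 encode ligands of Cxcr2, the receptor through which neutrophils are attracted. Pf4 (platelet factor 4) and Ppbp (pro-platelet basic protein) are best known as products of megakaryocytes and platelets. Cxcl9 and Cxcl10 encode ligands of Cxcr3 on activated T cells and NK cells, and are known as interferon target genes. Cxcl11 is the third gene for a ligand of this receptor, but the mouse reference annotation classes it as a polymorphic pseudogene, so that a working protein cannot be assumed in these mice. In macrophages exposed to bacterial products, NF-kB drives many chemokine genes, while IRF factors act on genes of the interferon response.

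The catalog came from ATAC-seq, in which the Tn5 transposase inserts adapters into exposed DNA, on macrophages grown from bone marrow (BMDMs). The mice were wild type, and the study's methods name young adult males of the strain C57/BL6. All cells had been kept in DMSO for 1 h and were then left untreated, or received LPS or IL4, each at 10 ng/mL, for 30 min, 1 h, 2 h or 4 h. The 18 libraries made up 9 groups of 2. Whether replicates came from separate animals is not given in the sources used here. The deposited lists were pooled over all groups, so that no element could be assigned to a stimulus, a time point or a library. LPS and IL4 were therefore not compared, depth per library is unknown, and no value below has a replicate or a test. A summit is a single base at the top of a peak and carries a score from 102 to 2781 (median 737) whose scale is not stated. A reference peak is the interval around 1 or more summits, and an extended region joins neighbouring peaks with added flanks. Only peaks that passed the authors' limits were listed, so that a missing peak need not mean closed chromatin.

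As a check of the cell type, 8 of 8 macrophage marker genes had a reference peak within 1000 bp of an annotated start site, called a start site peak below, as did 56.5% of 21938 protein-coding genes. Start site peaks were also found at 4 of 8 neutrophil genes, 1 of 9 megakaryocyte and platelet genes, 1 of 7 lymphocyte genes and 4 of 6 genes of fibroblasts and endothelium. Whether these lists bear on the chemokine genes was not tested.

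The promoters of 7 of the 9 genes were present in the RefSeq table used (GRCm38.p6, the coordinates of mm10), and Cxcl5 and Cxcl11 had no entry there. The 250 bases before the RefSeq start are shown 5′ to 3′ on the strand of the gene, because Cxcl1, Cxcl2, Cxcl3 and Cxcl10 held NF-kB matches there. Capitals mark the NF-kB consensus, the IRF consensus (both searched on both strands) and TATAAA on the strand of the gene.
Cxcl1, chr5:90890995-90891244, plus strand: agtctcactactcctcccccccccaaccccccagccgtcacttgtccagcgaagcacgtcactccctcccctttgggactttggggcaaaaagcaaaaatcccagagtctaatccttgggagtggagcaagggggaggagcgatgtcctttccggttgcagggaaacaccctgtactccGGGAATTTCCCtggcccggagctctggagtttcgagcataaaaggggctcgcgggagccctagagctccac
Cxcl2, chr5:90903649-90903898, plus strand: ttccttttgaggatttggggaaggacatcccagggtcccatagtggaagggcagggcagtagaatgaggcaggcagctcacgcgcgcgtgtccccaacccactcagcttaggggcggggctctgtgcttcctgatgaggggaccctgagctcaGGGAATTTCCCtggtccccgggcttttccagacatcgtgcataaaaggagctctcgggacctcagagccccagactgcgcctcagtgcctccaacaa
Cxcl3, chr5:90785851-90786100, plus strand: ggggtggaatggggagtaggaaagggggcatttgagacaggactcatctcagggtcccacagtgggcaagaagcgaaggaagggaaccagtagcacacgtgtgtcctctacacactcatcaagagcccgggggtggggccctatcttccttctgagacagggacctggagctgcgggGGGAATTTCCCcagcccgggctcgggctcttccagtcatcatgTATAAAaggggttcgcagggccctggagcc
Pf4, chr5:90772185-90772434, plus strand: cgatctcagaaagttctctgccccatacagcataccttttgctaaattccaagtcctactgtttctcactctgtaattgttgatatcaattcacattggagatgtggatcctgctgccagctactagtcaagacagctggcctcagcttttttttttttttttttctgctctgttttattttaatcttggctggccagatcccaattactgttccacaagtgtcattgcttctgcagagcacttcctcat
Ppbp, chr5:90768268-90768517, plus strand: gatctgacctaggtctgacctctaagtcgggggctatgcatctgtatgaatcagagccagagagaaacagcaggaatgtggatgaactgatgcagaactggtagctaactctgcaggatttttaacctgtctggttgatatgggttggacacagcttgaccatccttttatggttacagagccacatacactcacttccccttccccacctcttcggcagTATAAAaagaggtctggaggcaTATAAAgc
Cxcl9, chr5:92328080-92328329, minus strand: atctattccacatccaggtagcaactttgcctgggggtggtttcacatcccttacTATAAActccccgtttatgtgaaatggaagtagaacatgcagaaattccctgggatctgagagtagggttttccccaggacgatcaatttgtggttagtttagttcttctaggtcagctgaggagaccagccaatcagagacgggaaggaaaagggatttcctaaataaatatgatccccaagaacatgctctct
Cxcl10, chr5:92348890-92349139, minus strand: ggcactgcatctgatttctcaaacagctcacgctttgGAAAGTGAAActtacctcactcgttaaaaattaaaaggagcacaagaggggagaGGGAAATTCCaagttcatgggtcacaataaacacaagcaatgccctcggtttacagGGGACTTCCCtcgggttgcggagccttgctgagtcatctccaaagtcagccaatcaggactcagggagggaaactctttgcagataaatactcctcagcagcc

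Cxcl1, Cxcl2 and Cxcl3 shared the same 11 letters at nearly the same place. GGGAATTTCC began 71 bases before the RefSeq start of Cxcl1, 97 bases before that of Cxcl2 and 73 bases before that of Cxcl3, and the NF-kB consensus on the other strand overlapped it, shifted by 1 base. Counted from the GENCODE starts, the same sites began 67, 69 and 75 bases upstream. Cxcl10 held 2 NF-kB matches, GGGAAATTCC beginning 159 bases and GGGACTTCCC beginning 103 bases before the start, besides the IRF match GAAAGTGAAA beginning 213 bases before it and an AP-1 match (TGAGTCA) beginning 74 bases before it. The 250 bases of Pf4, Ppbp and Cxcl9 held no NF-kB or IRF match. Among all 32851 RefSeq promoters, 3.9% held the NF-kB consensus in these 250 bases and 2.98% the IRF consensus, while AP-1 was found in 4.46%. TATAAA occurred in 7.59% of promoters. In this set it lay 30 bases before the start in Cxcl3 and in Ppbp, again 8 bases before the start in Ppbp, and 195 bases before the start in Cxcl9. Pf4 was the member with a PU.1 match (GAGGAAGT, in 2.44% of promoters), beginning 10 bases before the start, and with a C/EBP match (TTGCNNAA, in 9.56%), beginning 212 bases before it. CpG dinucleotides numbered 10 in Cxcl1, 9 in Cxcl2 and 7 in Cxcl3, and 5 in Cxcl10, 3 in Cxcl9, 2 in Ppbp and 1 in Pf4, against a median of 6 over all promoters. A match to a consensus is a description of the sequence, not evidence of binding.

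Start site peaks were present at 6 of the 9 genes, 4 of 6 in the neutrophil cluster and 2 of 3 in the interferon cluster. This is close to the 56.5% of all coding genes. Cxcl1 (chr5:90891241-90893115, plus strand), a neutrophil chemokine, had a peak of 661 bp over its start, the widest of the neutrophil cluster, with its summit 6 bp upstream of the start and a score of 911. A further summit with a score of 458 lay 669 bp upstream. Cxcl2 (chr5:90903871-90905938, plus strand) had the best scored start of the set. Its summit 41 bp upstream scored 1747, the neighbouring summit 165 bp upstream scored 1632, and another, 652 bp upstream, scored 856. Cxcl3 (chr5:90786103-90789600, plus strand) had a single start site summit, 57 bp upstream, with a score of 544.

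Pf4 (chr5:90772435-90773383, plus strand), the platelet factor, was accessible at its start in this catalog of macrophage libraries. Its summit 15 bp upstream scored 911 and another, 866 bp upstream, scored 979. Ppbp (chr5:90768518-90770063, plus strand), the neighbouring platelet gene, had no start site peak, and its nearest peak was the distal one of Pf4, 2967 bp from the Ppbp start. Cxcl5 (chr5:90759360-90761624, plus strand) had no start site peak either, and its nearest peak lay 11861 bp away. Of the 9 megakaryocyte and platelet genes in the list, Itga2b was the one with a start site peak, and its best start site summit scored 1851. That peak lay at another annotated start, since the nearest peak to the most upstream Itga2b start was 2742 bp away. The number of cells behind a score cannot be read from pooled lists.

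In the interferon cluster, Cxcl10 (chr5:92346638-92348889, minus strand) had a start site summit 53 bp upstream with a score of 1594. Cxcl11 (chr5:92359544-92365485, minus strand), which GENCODE M21 classes as a polymorphic pseudogene, has 2 annotated starts that lie 2208 bp apart. Its peak covered the inner start, with the summit 45 bp upstream of that start and 2163 bp inside the outer one, and a score of 1059. Cxcl9 (chr5:92321347-92328079, minus strand) had no start site peak. The nearest peak lay 3140 bp upstream, at the beginning of the neighbouring gene Art3, and its summit scored 476. Against the best start site summits of 12321 coding genes (median 1456, interquartile range 1071 to 1799), Cxcl2 ranked at percentile 70.7 and Cxcl10 at 59.3. The others ranked low, with Cxcl11 at percentile 24.3, Pf4 at 19.9, Cxcl1 at 17.0 and Cxcl3 at 4.28.

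**Figure D1:**
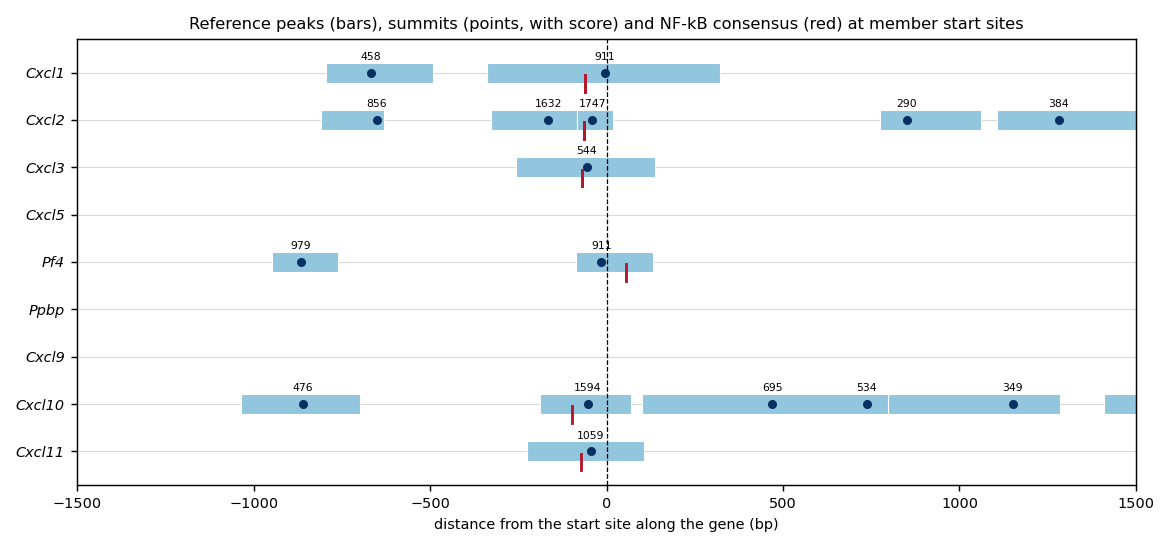
Each row shows 1 chemokine gene with distance from its start site along the gene in bp on the horizontal axis. Bars are reference peaks, points are summits with their score beside them, and red ticks are NF-kB matches within 100 bp of a summit. For Cxcl11 the distance is from the inner start site, and for the others from the most upstream one. Cxcl5, Ppbp and Cxcl9 have no peak in the frame, and the other 6 genes have a red tick beside the summit closest to the start.

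The NF-kB consensus lay within 100 bp of the summit closest to the start at all 6 genes with a start site peak, namely Cxcl1, Cxcl2, Cxcl3, Pf4, Cxcl10 and Cxcl11. The same was true of 3.79% of the 12321 coding genes with such a summit. The site began 51 bp inside the gene in Pf4 and upstream of the start in the others, by 103 bp in Cxcl10 and 77 bp in Cxcl11. None of the 6 summits had an IRF match within that distance (the share over coding genes was 2.25%), and at Cxcl10 and Cxcl11 an AP-1 match lay beside the NF-kB match. The peak of Cxcl10 reached 188 bp upstream of its start, and the IRF match at 213 bases therefore lay outside it. Within 50 bp, 4 of the 6 summits kept the NF-kB match. The question was raised after the sites had been seen, and the genes are few and partly paralogous.

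The lists named a wider set of CXC ligands and receptors, and 4 of 14 of these had a start site peak. These were Cxcl16, a ligand that macrophages are known to make, with a score of 1284, Cxcl14 with 1117, the receptor Cxcr3 with 759 and Cxcr4 with 675. Cxcr2, the receptor for Cxcl1, Cxcl2, Cxcl3 and Cxcl5, had none, and its nearest peak was 1436 bp away. Cxcl15, which lies in the neutrophil cluster between Cxcl3 and Cxcl1, had none either, with its nearest peak 6132 bp away.

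The neutrophil cluster extended over chr5:90709360-90953871. With a stretch beyond 50 kb of any member left out, it measured 239.4 kb and held 40 summits in 40 reference peaks and 21 extended regions, or 1.67 summits per 10 kb. The interferon cluster, chr5:92278079-92415485, measured 137.4 kb and held 33 summits in 30 reference peaks and 13 extended regions, or 2.40 summits per 10 kb. The catalog as a whole had 0.320 summits per 10 kb of sequence without gaps, so that the clusters were 5.23 times and 7.51 times as dense. Reference peaks covered 4.70% of the neutrophil cluster and 7.70% of the interferon cluster. Both clusters lie in gene-bearing sequence, for which the whole genome is a wide standard, and the comparison by gene below is closer.

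Per 10 kb, the interferon cluster held 1.44 times as many summits as the neutrophil cluster. That order depended on what was counted. The neutrophil cluster fell into a stretch with Cxcl5, Ppbp, Pf4 and Cxcl3, which held 11 summits in 126.7 kb (0.868 per 10 kb), and a stretch with Cxcl1 and Cxcl2, which held 29 summits in 112.6 kb (2.57 per 10 kb). Against the Cxcl1 and Cxcl2 stretch alone, the ratio of the interferon cluster was 0.933. With summits counted whose nearest start site, among protein-coding genes and members, belonged to a chemokine gene, the ratio was 0.895. With start sites of genes of any type it was 1.32. Extended regions, which count a dense stretch once, numbered 0.877 and 0.946 per 10 kb. The split at the gap and the nearest-gene counts were chosen after seeing the data.

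**Figure D2:**
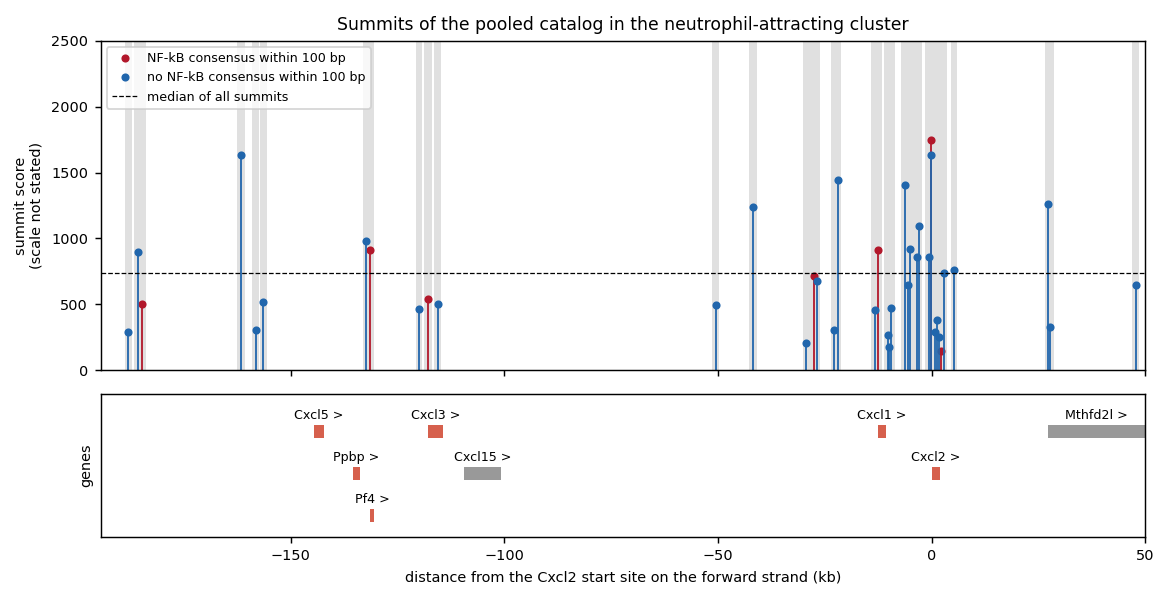
Summit scores (vertical axis, scale not stated) against distance from the Cxcl2 start site on the forward strand in kb, with extended regions in grey, genes below (members red, others grey, arrowheads for strand) and the catalog median of 737 dashed. Summits crowd around Cxcl1 and Cxcl2, and an empty stretch of 65083 bp holds Cxcl15.

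The emptiest stretch of the neutrophil cluster ran for 65083 bp, from a summit in an exon of Cxcl3 at position 90788302 to one at position 90853385, and contained Cxcl15. In bins of 10 kb, 13 of 25 bins of the neutrophil cluster had no summit and the fullest held 11. In the interferon cluster 4 of 14 bins had none, the fullest held 6, and the longest empty stretch measured 28708 bp. Of the 40 summits in the neutrophil cluster, 37 had a chemokine gene as their nearest start site among protein-coding genes and members, 14 of them Cxcl2, 12 Cxcl1, 6 Cxcl5, 3 Cxcl3 and 2 Pf4. The remaining 3 lay nearest to Mthfd2l. In the interferon cluster 19 of 33 did so, 12 for Cxcl10 and 7 for Cxcl11. None had Cxcl9 as its nearest start, and the other 14 lay nearest to Art3 (7), Naaa (4) and Sdad1 (3). With genes of every annotated type included, such as non-coding RNAs, the counts were 25 of 40 and 19 of 33. The nearest start site is a description and does not assign an element to a gene.

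The clusters also differed in where their elements lay. In the neutrophil cluster 33 of 40 summits (82.5%, 95% Wilson interval 68.0 to 91.3) were outside protein-coding genes and polymorphic pseudogenes, and in the interferon cluster 7 of 33 (21.2%, 10.7 to 37.8), against 42.4% of the catalog. These intervals, and those below, cover counting error only. Cxcl10 and Cxcl11 lie inside Art3 on the opposite strand, and 20 of the 33 summits were placed in Art3. Summits in exons of Cxcl10 or Cxcl11 also lie within Art3, but were placed in those genes and are not among the 20. Within 1000 bp of an annotated start site of any gene lay 13 of 40 summits and 9 of 33, against 29.3% of the catalog.

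**Figure D3:**
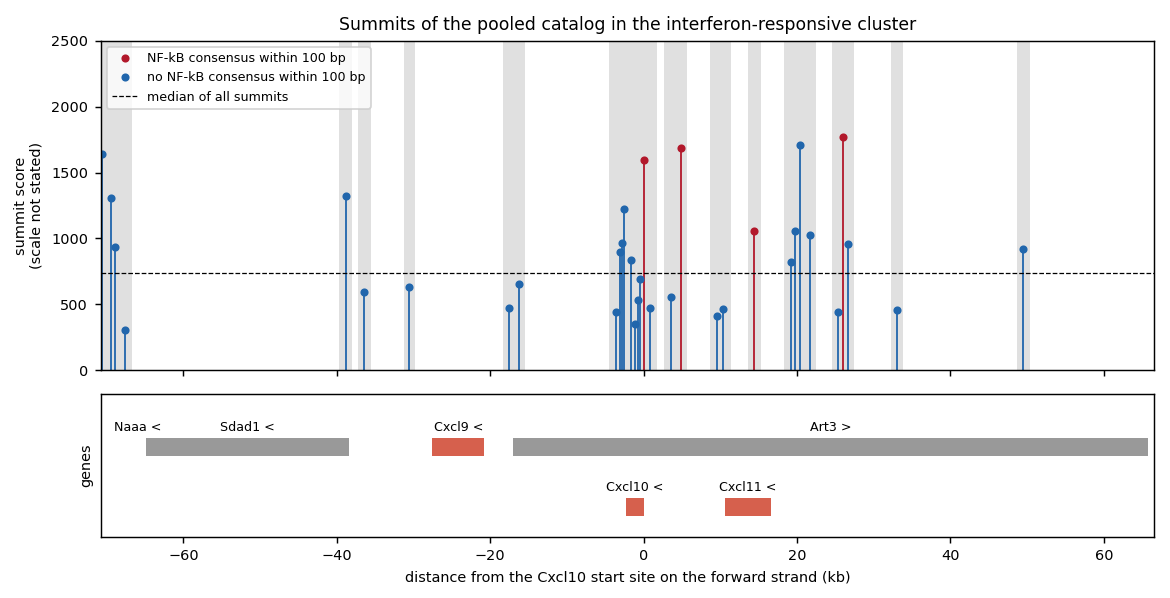
The same plot for the interferon cluster, with distance from the Cxcl10 start site on the forward strand in kb. The densest region lies over Cxcl10, a summit scoring 1683 lies between Cxcl10 and Cxcl11, those scoring 1708 and 1773 lie to the right of Cxcl11, and the stretch over Cxcl9 itself is empty.

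Seen by gene, Cxcl1 and Cxcl2 each had 28 summits within 50 kb, Cxcl9 had 31, Cxcl10 had 29 and Cxcl11 had 27. Coding genes had a median of 6 summits (interquartile range 1 to 11), and these 5 genes stood at percentiles 98.1 to 99.2. Cxcl5 with 11 summits, Ppbp with 9, and Cxcl3 and Pf4 with 8 each ranked at percentiles 58.9 to 71.8. Cxcl9 thus had the most summits around it of the 9 genes and none at its own start. The windows overlap, and 36 of 40 and 29 of 33 summits fell in the window of more than 1 member, so that the genes of a cluster are not independent counts. Extended regions within 50 kb numbered from 7 (Cxcl3 and Pf4) to 12 (Cxcl10), against a median of 4, and set the genes less far apart. By this count Cxcl1, Cxcl2 and the interferon cluster stood at percentiles 84.1 to 92.1, and Cxcl5 with 10 regions was level with Cxcl1 and Cxcl11 at 84.1. Within 100 kb the order in the neutrophil cluster was the opposite, with 11 regions for Cxcl1 (percentile 58.1) and 12 for Cxcl2 (62.5), but 19 for each of Cxcl3, Cxcl5, Pf4 and Ppbp (87.9).

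**Figure D4:**
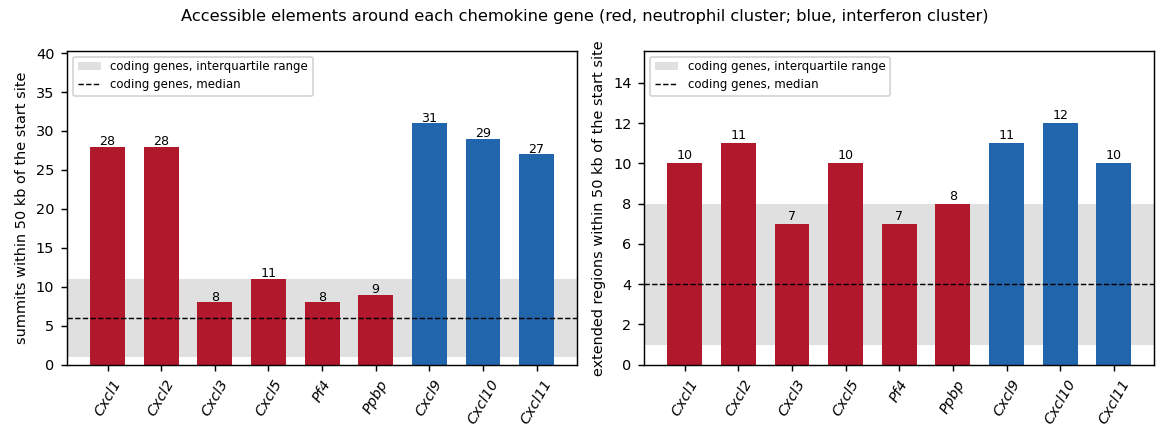
Number of summits (left) and extended regions (right) within 50 kb of the most upstream start site of each gene, with the median of protein-coding genes dashed and their interquartile range in grey. Cxcl1, Cxcl2 and the interferon cluster reach 27 to 31 summits, while Cxcl3, Cxcl5, Pf4 and Ppbp lie between 8 and 11.

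The densest element of each cluster covered a chemokine gene from flank to flank. Over Cxcl2, the extended region chr5:90902362-90907595 (5234 bp) held 8 summits in 8 reference peaks, with scores from 147 to 1747. Over Cxcl10, the extended region chr5:92344435-92350626 (6192 bp) held 10 summits in 7 reference peaks, with scores from 349 to 1594. Among all 59617 extended regions, 114 held at least 8 summits and 52 at least 10. In both, all summits were sub-peaks of a single numbered peak of the merged call. Reference peaks filled 48.0% of the Cxcl2 region and 61.0% of the Cxcl10 region. The summits inside the Cxcl2 gene body scored 290, 384 and 250, all far below those at its start. Those in the Cxcl10 gene body scored 834, 349, 534 and 695. The widest reference peak of the interferon cluster (chr5:92345618-92346669, 1052 bp) lay at the 3′ end of Cxcl10. It held 3 summits, the highest at 1224, and GENCODE places them in an exon of Art3.

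Scores were spread over a similar range in the clusters. They ran from 147 to 1747 (median 644) in the neutrophil cluster and from 307 to 1773 (median 834) in the interferon cluster, and 17 of 40 and 18 of 33 summits reached the catalog median of 737. Among the 5 best scored summits of the neutrophil cluster, 2 lay at the Cxcl2 start (1747 and 1632). One with a score of 1632 lay 17132 bp upstream of Cxcl5 and was the single summit of its extended region. The others lay 9340 bp upstream of Cxcl1 (1443) and 6252 bp upstream of Cxcl2 (1406). In the interferon cluster the best summit (1773) lay in Art3, 9414 bp upstream of the outer Cxcl11 start. Its nearest annotated start was one of Art3, 2076 bp away. It was followed by one 3772 bp upstream of the outer Cxcl11 start (1708) and one 4881 bp upstream of Cxcl10 (1683). The start of Naaa (1644) and the start of Cxcl10 (1594) came next. In this ranking 3 of the 5 summits of each cluster were thus distal, more than 1000 bp from any annotated start site.

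The sequences of all 6 distal summits among these best scored ones, 75 bases to each side on the plus strand of GRCm38.p6, are shown because they are the strongest elements away from a start site. Capitals mark matches to NF-kB, IRF, AP-1, PU.1 and C/EBP on either strand.
summit upstream of Cxcl5, chr5:90742153-90742303, plus strand: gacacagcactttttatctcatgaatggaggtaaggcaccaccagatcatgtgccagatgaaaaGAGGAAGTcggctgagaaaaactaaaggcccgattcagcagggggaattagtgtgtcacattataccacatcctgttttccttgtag
summit upstream of Cxcl1, chr5:90881826-90881976, plus strand: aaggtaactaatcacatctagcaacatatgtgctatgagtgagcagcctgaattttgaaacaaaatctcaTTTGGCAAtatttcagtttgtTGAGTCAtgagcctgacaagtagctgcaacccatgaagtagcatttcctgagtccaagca
summit upstream of Cxcl2, chr5:90897544-90897694, plus strand: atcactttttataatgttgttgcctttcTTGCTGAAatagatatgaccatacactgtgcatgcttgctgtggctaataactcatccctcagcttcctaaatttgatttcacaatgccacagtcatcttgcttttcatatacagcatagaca
summit upstream of Cxcl10, chr5:92353695-92353845, plus strand: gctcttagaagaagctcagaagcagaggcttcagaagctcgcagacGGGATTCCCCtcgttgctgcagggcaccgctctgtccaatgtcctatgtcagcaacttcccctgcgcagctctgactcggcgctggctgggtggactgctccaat
summit upstream of Cxcl11, chr5:92369182-92369332, plus strand: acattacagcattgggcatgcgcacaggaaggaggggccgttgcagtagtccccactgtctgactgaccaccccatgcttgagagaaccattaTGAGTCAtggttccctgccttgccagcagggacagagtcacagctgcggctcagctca
best scored summit of the interferon cluster, chr5:92374824-92374974, plus strand: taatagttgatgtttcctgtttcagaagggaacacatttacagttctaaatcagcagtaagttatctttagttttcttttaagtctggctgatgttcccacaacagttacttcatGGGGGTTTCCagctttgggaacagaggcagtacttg

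The summit upstream of Cxcl5 held a PU.1 match close to its centre and no NF-kB match. The one upstream of Cxcl1 held a C/EBP and an AP-1 match. The one upstream of Cxcl2 held a C/EBP match. In the interferon cluster, an NF-kB match lay in 2 of the 3 distal summits shown, GGGATTCCCC upstream of Cxcl10 and GGGGGTTTCC at the best scored summit. The one upstream of Cxcl11 held an AP-1 match and no NF-kB match.

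NF-kB matches lay within 100 bp of 7 of 40 summits of the neutrophil cluster (17.5%, 8.75 to 32.0) and 4 of 33 of the interferon cluster (12.1%, 4.82 to 27.3), against 5.55% of the catalog. Of these 11 summits, 6 were the start site summits named above. Among the other 67 summits of both clusters, a split made after the sites had been seen, 5 had a match (7.46%). They lay 40293 bp upstream of Cxcl5, 14991 bp upstream of Cxcl1, 2233 bp downstream of a Cxcl2 start, 4881 bp upstream of Cxcl10 and at the best scored summit in Art3.

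IRF matches lay within 100 bp of 2 of 33 summits of the interferon cluster (6.06%, 1.68 to 19.6) and 2 of 40 of the neutrophil cluster (5.00%, 1.38 to 16.5), against 3.64% of the catalog. Which cluster had more depended on the distance searched, with 0 and 2 summits within 50 bp and 3 and 2 within 200 bp. In the interferon cluster those within 100 bp lay 3107 bp upstream of the outer Cxcl11 start and 730 bp inside Art3. No summit had both an NF-kB and an IRF match. The STAT6 consensus was found at 1 of 33 and 2 of 40 summits (6.81% of the catalog). With 33 and 40 summits, a difference between clusters of the size seen here was not detectable for either of these motifs.

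AP-1 was found at 9 of 40 summits of the neutrophil cluster (22.5%, 12.3 to 37.5) and 5 of 33 of the interferon cluster (15.2%, 6.65 to 30.9), against 15.9% of the catalog. C/EBP was found at 7 and 3 summits (catalog 11.4%), PU.1 at 5 and 1 (9.08%), RUNX (TGTGGTT) at 2 and 2 (7.91%), and CTCF at 2 and 1 (3.03%). GGGCGG, the core of SP and KLF sites, was found at 3 and 3 (16.9%). The CRE palindrome TGACGTCA, in 0.938% of the catalog, was at 0 of 40 and 0 of 33, which allows shares of up to 7.5% and 9.09% by the limit of 3 counts (Wilson upper bounds 8.76% and 10.4%). All motifs were searched on both strands, and matches of different motifs could overlap.

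**Figure D5:**
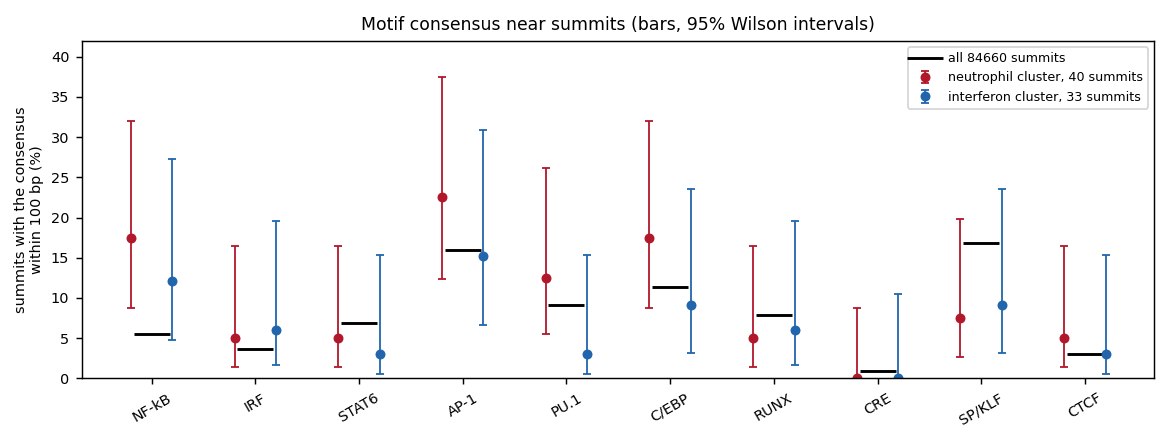
Share of summits with each consensus within 100 bp (vertical axis, percent) for the neutrophil cluster (red, 40 summits), the interferon cluster (blue, 33 summits) and the whole catalog (black dashes), with 95% Wilson intervals. For NF-kB the interval of the neutrophil cluster runs from 8.75 to 32.0, and the catalog has 5.55%. This is no test against the catalog, since the matches include start site summits of partly paralogous genes. Among the 67 summits of both clusters without the 6 start site summits, 5 had a match (7.46%). Every interval of one cluster overlaps that of the other.

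Uniqueness of the sequence was counted on both strands of the genome. The 76 bases centred on the summit occurred once in the genome at 40 of 40 and 33 of 33 summits. Around the starts of Cxcl5, Ppbp and Cxcl9, all 193 stretches of 76 bases within 1000 bp occurred once, while for Cxcl2 and for Cxcl3 this held for 185 of 193. For shorter stretches of 38 bases it held for 39 of 40 and 32 of 33 summits, and for 180 of 193 stretches at Cxcl5, 193 at Ppbp, 191 at Cxcl9 and 177 at Cxcl2 and at Cxcl3. The names of the summits carry the running number of a merged call, of which 32.1% of numbers remained in the list. In the neutrophil cluster 26 of 55 numbers remained (47.3%) and in the interferon cluster 19 of 37 (51.4%). Between the summits on either side of Cxcl5 and Ppbp, 24193 bp apart, 6 numbers were absent from the list, and on either side of Cxcl9 2 were absent over 12966 bp. The numbers rose with position throughout, but where within these gaps the unlisted calls lay, and in which libraries, was not analysed here.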

How the data were processed

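The authors trimmed single-end ATAC-seq reads with Trimmomatic 0.39, aligned them to mm10, filtered them with SAMtools 1.9 and called peaks with MACS2 2.2.6, keeping duplicates. The methods name an extension size for reads, but no Tn5 offset correction and no shift of the reads. Both omissions can displace summits, and by how many bases was not tested. The authors kept peaks that passed a strict q-value limit and overlapped sufficiently between replicates. A gene without a listed peak can thus have had calls that failed these limits. The kept peaks were pooled over all 18 libraries into 3 deposited lists, and 0 columns belonged to other samples. The summit list carries a score as deposited by the authors, on a scale not stated in the sources used here; it was used to rank summits.

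Positions are on mm10, counted from 1. Summits, peaks and extended regions were counted around the most upstream start site (50000 bp) or any start site (1000 bp) of GENCODE M21 with pandas 2.3.3 and numpy 2.4.6, and percentiles are shares of coding genes with a lower value. Consensus motifs were searched in GRCm38.p6 within 100 bp of summits and in RefSeq promoters. A further motif is not reported here. Counting and motif search were tested on simulated data. The text names the 9 members, other coding genes of the windows, and per cluster the 5 best scored summits, the widest peak and the region with the most summits. The members, lists and motifs were chosen with earlier results of these data known. No test was made, since the lists hold no replicates. The alternatives were other windows, score limits, element types and motif distances.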

Additional observations from a re-analysis of the deposited data

How the results depend on the processing

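Of the 56 alternative values for the comparisons, 40 stayed within 1.5 times the reported value or within its 95% interval. The number of genes with a start site peak was 6 in windows of 500 and 2500 bp, and 5 with the peaks of low score left out (Cxcl3) or the most upstream start site alone (Cxcl11). The order of the clusters in summits per 10 kb reversed with summits nearest to a chemokine gene among coding genes (0.895, from 1.55 and 1.38 per 10 kb; 1.32, from 1.04 and 1.38, with genes of any type) and without the Cxcl5 to Cxcl3 stretch (0.933, from 2.57 per 10 kb in the rest), all chosen after seeing the data. Under the other alternatives tried the ratio stayed above 1. Densities moved to 2.68 and 3.62 per 10 kb in windows of 20000 bp, to 0.710 and 1.31 with summits at or above the median score, to 0.877 and 0.946 with extended regions, and to 3.85 in the interferon cluster between the first and last gene body (ratio 2.02). The NF-kB share of the interferon cluster was 30.8% (4 of 13) at the best summit of each extended region. The IRF share was 0% of 17 summits at or above the median score in the neutrophil cluster, and in the interferon cluster 0% of 33 within 50 bp and 9.09% within 200 bp, where the neutrophil cluster had 5.00% at both distances. Percentiles by extended regions within 20000 bp ranged from 73.5 to 95.9, and within 100000 bp from 58.1 (Cxcl1) to 87.9. Start site summits with NF-kB numbered 4 within 50 bp and 6 within 200 bp. Replicates could not be left out, and no paired analysis was possible because the lists carry no replicate numbers.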
